A study of Schizosaccharomyces pombe with 6 samples.

Results

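Along the arms of fission yeast chromosomes I and II, 1750 of 26833 array positions, or 6.52%, had a raised ratio of immunoprecipitated (IP) over input DNA for the replication protein A (RPA) subunit Ssb1, in cells without and with the checkpoint kinase Rad3. The raised ratio came with dim input at most of these sites, and their IP signal itself lay near the array median. These sites were chosen on the measured values themselves. A position was taken when the mean log2 ratio of IP over input was at least 0.4 in rad3Δ and at least 0.4 in WT, and when both means lay less than 0.4 apart. Each array's ratios were centred on their median, so a value of 0 is the median position and not the absence of RPA, and a change shared by the whole genome cannot be seen. The whole series holds 42641 nuclear positions. The arms were searched from position 100259 to 3719998 on chromosome I and from 129593 to 4391858 on chromosome II, leaving out the end of chromosome I beyond that position, with its centromere and right arm, the centromere of chromosome II, the mating-type region and the rad3 gene.

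The 6 arrays were 2-colour Agilent tiling arrays of Schizosaccharomyces pombe, each setting the Ssb1 IP of a sample against its own input. Of these, 3 came from cdc25-22 rad3Δ cells, called rad3Δ here, and 3 from cdc25-22 cells, called WT as in the labels. Both strains carry the temperature-sensitive cdc25-22 allele, which halts cells before mitosis at the restrictive temperature, so neither is wild type at cdc25. All cultures were grown in EMM6S medium, held for 4 h at 36.5 °C, shifted to 25 °C for release and then given 6 mM hydroxyurea. No harvest time is stated, and the labels do not say whether replicates were separate cultures, so any spread below may be technical. The protocols in the labels speak of RNA, while the channels are marked IP or input. For rad3Δ replicate 3 the strain is written cdc25-23 for the input channel and cdc25-22 for the IP channel. Every rad3Δ array lay at position 4 of its slide and every WT array at position 2, so strain and slide position cannot be told apart.

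RPA is a complex of large, middle and small subunits that coats single-stranded DNA wherever the duplex is opened, at replication origins and forks, during recombination and at sites of damage. Ssb1 is its large subunit in fission yeast. Hydroxyurea inhibits ribonucleotide reductase and so slows forks by lowering the supply of deoxynucleotides. Rad3, the fission yeast ATR kinase, is recruited through RPA-coated DNA with its partner Rad26, activates the kinase Cds1 at slowed forks and restrains late origins. Origins of this yeast lie in AT-rich stretches, mostly between genes. Transfer RNA genes and 5S ribosomal RNA genes, which RNA polymerase III transcribes, are known in yeasts as places where forks pause.

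The highest position of 4 of the strongest runs of sites is printed with its surroundings, to show the DNA that was measured there. Capitals mark the stretch that the array measured. Sequences are from the RefSeq assembly ASM294v3, with its coordinates.
exg1, chrII:3515143-3515292, plus strand: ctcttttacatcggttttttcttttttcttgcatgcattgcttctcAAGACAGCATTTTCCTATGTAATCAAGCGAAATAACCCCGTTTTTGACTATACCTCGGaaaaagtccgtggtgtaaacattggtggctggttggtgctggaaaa
gap of cbp1 and exg1, chrII:3513249-3513398, plus strand: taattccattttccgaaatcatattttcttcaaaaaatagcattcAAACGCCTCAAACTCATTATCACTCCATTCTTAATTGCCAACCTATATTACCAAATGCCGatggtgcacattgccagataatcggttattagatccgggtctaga
thi2 and sec9, chrII:3941478-3941627, plus strand: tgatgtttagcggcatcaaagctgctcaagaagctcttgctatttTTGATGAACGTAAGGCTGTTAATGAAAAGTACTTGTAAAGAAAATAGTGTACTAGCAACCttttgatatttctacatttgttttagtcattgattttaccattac
gap of git11 and gpd1, chrII:4033425-4033574, plus strand: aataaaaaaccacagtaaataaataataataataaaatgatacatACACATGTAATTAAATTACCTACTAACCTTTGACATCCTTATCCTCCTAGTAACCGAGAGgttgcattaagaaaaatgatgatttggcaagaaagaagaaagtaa
The next set shows the 4 tRNA genes lying at the strongest or longest runs, with the annotated tRNA gene in capitals and 40 flanking bases on each side.
SPBTRNAASP.04, tRNA-Asp, chrII:3939187-3939337, plus strand: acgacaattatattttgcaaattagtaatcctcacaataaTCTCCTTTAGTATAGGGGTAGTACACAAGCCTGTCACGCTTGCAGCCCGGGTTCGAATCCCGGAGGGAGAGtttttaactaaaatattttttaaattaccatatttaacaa
SPBTRNAASN.04, tRNA-Asn, chrII:4210013-4210166, minus strand: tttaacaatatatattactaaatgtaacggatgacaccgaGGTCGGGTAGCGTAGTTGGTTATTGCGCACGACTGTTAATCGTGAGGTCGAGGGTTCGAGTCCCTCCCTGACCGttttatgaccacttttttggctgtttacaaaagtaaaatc
SPBTRNAASN.02, tRNA-Asn, chrII:2032120-2032273, plus strand: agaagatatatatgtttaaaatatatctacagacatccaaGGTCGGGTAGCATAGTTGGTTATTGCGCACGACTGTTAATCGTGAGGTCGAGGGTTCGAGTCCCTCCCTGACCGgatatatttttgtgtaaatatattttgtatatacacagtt
SPBTRNAARG.05, tRNA-Arg, chrII:1160853-1161034, minus strand: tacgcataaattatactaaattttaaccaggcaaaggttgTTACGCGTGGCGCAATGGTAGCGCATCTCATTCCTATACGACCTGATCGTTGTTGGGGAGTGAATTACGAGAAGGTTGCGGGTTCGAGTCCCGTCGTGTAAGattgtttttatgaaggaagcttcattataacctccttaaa
Both tRNA-Asn genes were 74 bases long and differed by 1 base, written A12G from SPBTRNAASN.02 to SPBTRNAASN.04, counting from the 5′ end of the gene. Signal over such near-identical copies may come from other copies of the family, and arrays cannot tell these apart.

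The files name an older build, Spombe:NCBI:Feb2002. Probe length, which follows G+C content, was therefore set against the G+C content of ASM294v3 in 267 windows of 100 positions on the arms. In 264 of them the best offset lay within 12 bp of 0, and genes and sequences were read from ASM294v3 on that basis. Neighbouring positions started a median of 267 bp apart. On every array the input signal stood well above background at 99.1% or more of nuclear positions and the IP signal at 95.3% or more. Among the 1750 sites, 1687 had both channels well above background on all 6 arrays.

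The thresholds cut through a continuous range of values. In 425 sites the lower strain mean lay between 0.4 and 0.45, with median strain means of 0.44 in rad3Δ and 0.463 in WT. A further 497 positions with a lower strain mean of 0.35 to 0.4 fell just outside, with medians of 0.397 in rad3Δ and 0.394 in WT. Another 272 positions passed 0.4 in both strains but were higher in rad3Δ by 0.4 or more, with medians of 1.19 in rad3Δ and 0.512 in WT. The reverse held at 61 positions, with medians of 0.584 in rad3Δ and 1.08 in WT. These strong but unequal positions are not among the sites described here.

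**Figure D1:**
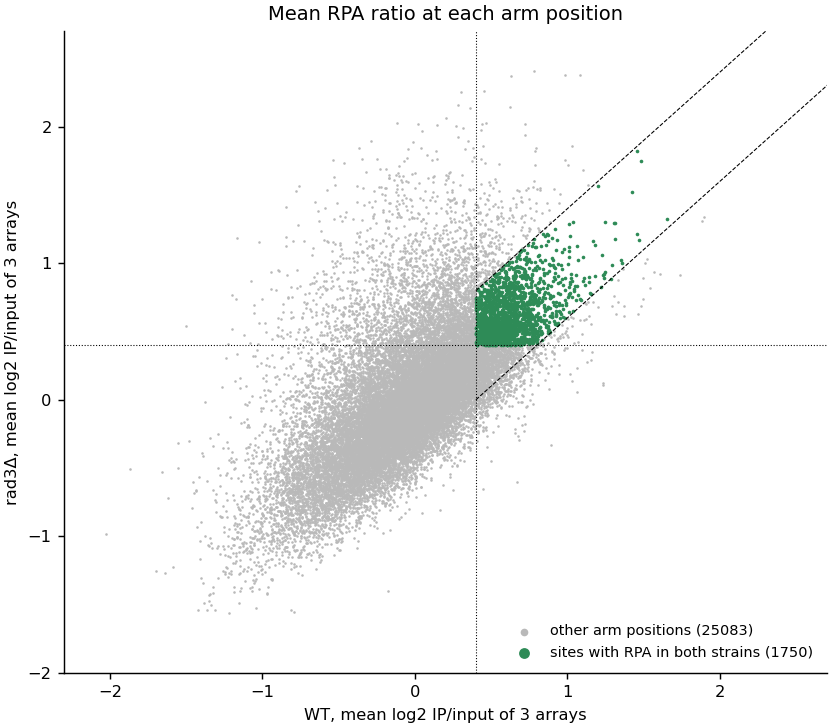
Mean log2 IP over input of the 3 rad3Δ arrays (vertical) and of the 3 WT arrays (horizontal) at each of the 26833 arm positions, relative to the array median. Dotted lines mark 0.4 in each strain and dashed lines a difference of 0.4; the 1750 sites (green) fill the corner above both thresholds and between the dashed lines, without a gap to the other positions (grey).

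The median ratio of the sites was 0.55, 0.61 and 0.67 on rad3Δ replicates 1, 2 and 3, against 0.59, 0.64 and 0.60 on WT replicates 1, 2 and 3. It averaged 0.61 ± 0.06 in rad3Δ and 0.61 ± 0.03 in WT (SD, n = 3 arrays each). The arrays of both strains overlap, and this follows from how the sites were chosen. Over all 6 arrays the site means ran from 0.402 to 1.64 with a median of 0.594, so the sites span a wide range above the median position. As for single arrays, 1626 sites, or 92.9%, were above 0 on all 6, against 16.4% of all arm positions. A smaller number, 384 sites, or 21.9%, were at 0.4 or more on every array, against 1.77% of arm positions. Replicate 3, whose IP carried the red dye, gave a median of 0.638 over both strains, and the 4 arrays with the IP in green gave 0.591.

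A linear model over all 42641 positions (limma, two-sided, Benjamini-Hochberg at 0.05) called 17.2% of them enriched over the array median in rad3Δ and 12.8% in WT. Among the 1750 sites it called 1524 in rad3Δ and 1506 in WT, with 1369 called in both strains, where 6.99% of all positions were, and 89 in neither. Because the same ratios chose the sites, these counts test nothing. They describe how far each site stood above a spread pooled over both strains and drawn in part from all positions. The counts depended on the arrays and on the background step. Leaving out replicate 3 of both strains, the red-dye replicate, left 582 sites called in rad3Δ and 406 in WT. Of all 42641 positions it left 3226 in rad3Δ and 1157 in WT. Normexp background correction left 447 sites in rad3Δ and 124 in WT, of 2254 and 386 positions called. Without rad3Δ replicate 3 alone 16 sites were called in rad3Δ, of 333 positions. Without WT replicate 3 alone 28 sites were called in WT, of 128 positions. Without rad3Δ replicate 2, 994 sites were called in rad3Δ, of 5308 positions. Leaving out replicate 3 also changed the model. Without it in both strains no dye term was fitted, and without it in a strain that strain's dye term came from the other strain alone. The array and the model therefore cannot be told apart in these counts. Of all positions, 3.52% were called higher in rad3Δ than in WT and 0.0844% lower. No site was in either group by limma, also at an unadjusted p under 0.05, where 4584 of all positions were higher and 1729 lower. The rule bounds the difference, so nothing is read from that count. With the replicate number as a block, which pairs arrays of a slide, the calls over all positions were 2424 higher and 192 lower, in place of 1503 and 36. The block called no site as different between the strains, and 30 sites had an unadjusted p under 0.05. With the block 1731 sites were called enriched in rad3Δ and 1732 in WT. The calls over all 42641 positions rose as well, to 9499 in rad3Δ and 7826 in WT, from 7340 and 5452. Under normexp, and in each fit without an array of replicate 3, limma called 0 positions higher and 0 lower at the adjusted threshold, with 2131 to 2660 higher and 706 to 1068 lower at an unadjusted p under 0.05. Sites where no array of a strain overlapped the other strain's numbered 46 with rad3Δ higher (2.63%) and 50 with WT higher (2.86%), where 11.4% and 5.78% of arm positions did so.

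To see the sites on arrays that had no part in their choice, the same thresholds were applied to 2 replicates of each strain and the values read from the third. For the 1884 sites chosen on replicates 2 and 3, the median ratio on replicate 1 was 0.38 in rad3Δ and 0.44 in WT, where the choosing arrays had given 0.61 in both strains. For the 1638 sites chosen on replicates 1 and 3, the median on replicate 2 was 0.53 in rad3Δ and 0.51 in WT. For the 1833 sites chosen on replicates 1 and 2, the median on replicate 3 was 0.56 in rad3Δ and 0.47 in WT. The level was thus lower on the unseen array in each of the 3 choices and stayed above the median position. In rad3Δ between 89.8% and 93.9% of the sites were above 0 on the unseen array, and in WT between 90.2% and 91.4%. Of all arm positions 50.4% to 51.7% were above 0 on rad3Δ arrays and 46.5% to 49.7% on WT arrays. The 3 choices share arrays, so no p is given.

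The ratio has 2 parts, and the sites differed from the other arm positions most in the input. Median log2 input at the sites, relative to the array median, was -0.76, -0.35 and -0.60 on rad3Δ replicates 1, 2 and 3, against -0.83, -0.36 and -0.52 on WT replicates 1, 2 and 3. It was below the median on all 6 arrays, most on replicate 1 and least on replicate 2 of both strains. Median log2 IP was -0.24, 0.25 and 0.05 on the rad3Δ replicates, against -0.23, 0.26 and 0.06 on the WT replicates. The IP signal thus sat near the array median, 0.02 ± 0.24 in rad3Δ and 0.03 ± 0.25 in WT (SD, n = 3), and its side of 0 depended on the slide. Sites with both input and IP below the median numbered 854, or 48.8%, against 45.3% of arm positions. Input was below and IP above the median at 457 sites, or 26.1%, against 6.07% of arm positions. A further 439 sites, or 25.1%, were above the median in both channels, against 42.5% of arm positions.

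Positions raised in rad3Δ only, 2168 with a rad3Δ mean of at least 0.4, WT below 0.4 and a difference of at least 0.4, had a different make-up. Their median log2 IP was 0.54 ± 0.13 in rad3Δ and -0.40 ± 0.08 in WT, and their input was -0.22 ± 0.08 in rad3Δ and -0.35 ± 0.10 in WT (SD, n = 3). The IP of the sites raised in both strains was therefore lower in rad3Δ than that of the sites raised there alone, on each of the 3 rad3Δ arrays. Positions low in both strains, 2723 with both means at or below -0.4, had an input of 0.70 ± 0.19 in rad3Δ and 0.71 ± 0.19 in WT. Positions higher in WT numbered 488, with a WT mean of at least 0.4 that lay at least 0.4 above rad3Δ. They include the 61 positions that also passed 0.4 in rad3Δ, while the class raised in rad3Δ only leaves out the 272 of the reverse kind. These classes are therefore not mirror images. All classes were cut on the ratio, so the values are a description.

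**Figure D2:**
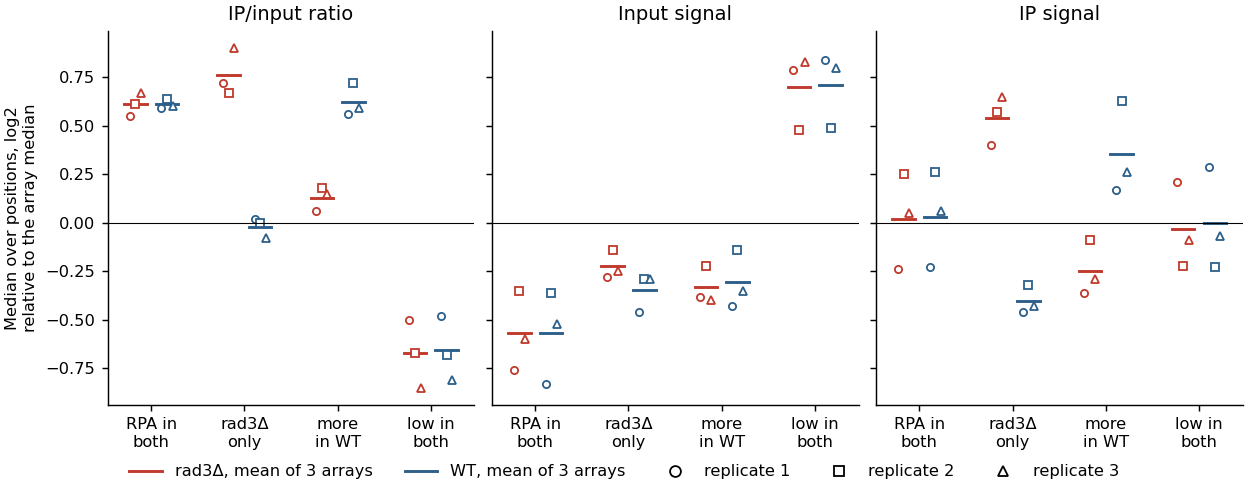
Median log2 ratio, input and IP over the positions of 4 classes, relative to the array median, with each array as a symbol and the mean of 3 arrays as a bar, rad3Δ (red) left of WT (blue). Sites with RPA in both strains have a ratio near 0.61 in both strains, an input below 0 on all 6 arrays and an IP on either side of 0 depending on the replicate.

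When the arm positions were split by mean input into 5 equal groups, the sites made up 11.2%, 9.30%, 6.73%, 3.97% and 1.4% of positions from the dimmest to the brightest group. Other raised classes were also most common in the dimmest group. Positions raised in rad3Δ only made up 11.4% of it and 5.05% of the brightest group, and those higher in WT 2.61% and 0.988%. Positions low in both strains went the other way, from 4.55% to 23.1%. Across all 26833 arm positions the ratio correlated with input at r = -0.335 and with IP at r = 0.0301, while input and IP correlated at 0.932. These positions share the same 6 arrays and the ratio contains the input, so no p is given. The part that dim input plays in the choice of sites was not tested. In an alternative added after the data had been seen, the trend of the ratio with brightness was taken off each array by lowess. Brightness was the mean log2 signal of both channels and not the input, so this step cannot show what part dim input plays. After it 1599 positions passed the same thresholds. They held 1507 of the 1750 sites (86.1%), and made up 10.9% of the dimmest and 2.38% of the brightest group. With normexp background correction 1650 positions passed, of which 876 were among the 1750 sites.

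Many sites had another site as neighbour. Of 1748 sites with a next position within 600 bp, 458, or 26.2%, were followed by another site, beside the 6.52% of arm positions that are sites; neighbouring positions share DNA fragments. A run was defined as at least 3 sites, each starting no more than 600 bp after the last. This gave 139 runs, 54 on chromosome I and 85 on chromosome II, which held 528 sites (30.2%). Another 203 pairs and 816 isolated sites (46.6%) made up the rest. Runs were 403 to 3054 bp wide with a median of 874 bp, and 121 overlapped a protein-coding gene. Of the 18 in gaps, 9 lay between divergent genes, 8 between tandem genes and 1 between convergent genes. Every run had a mean above 0 on its lowest array, and 76 were at 0.4 or more there. Input was below the median in 111 runs and IP above it in 81. Under normexp 66 runs were found.

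Around the middles of the 139 runs the ratio stood in a wider raised stretch. Within 250 bp it averaged 0.58 ± 0.09 in rad3Δ and 0.59 ± 0.05 in WT (SD, n = 3). At 750 to 1000 bp it was 0.31 ± 0.08 in rad3Δ and 0.29 ± 0.06 in WT, and at 4750 to 5000 bp it was 0.15 ± 0.05 in rad3Δ and 0.10 ± 0.03 in WT. The ratio was still above the array median 5 kb out in both strains, on all 6 arrays. Input was below the median within 250 bp, at -0.32 ± 0.15 in rad3Δ and -0.32 ± 0.16 in WT, and above it at 750 to 1000 bp, at 0.17 ± 0.02 in rad3Δ and 0.14 ± 0.04 in WT. The IP signal was higher beside the runs than in them: at 500 to 750 bp it averaged 0.47 ± 0.12 in rad3Δ and 0.40 ± 0.09 in WT, and within 250 bp 0.23 ± 0.24 in rad3Δ and 0.24 ± 0.23 in WT. Run middles were chosen on the ratio, so their excess over the surroundings is fixed by the rule. The surroundings held sites as well: 28.9% of positions at 500 to 750 bp, 19.4% at 750 to 1000 bp and 5.26% at 4750 to 5000 bp were sites themselves, so the rule also bears on the level beside the runs.

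**Figure D3:**
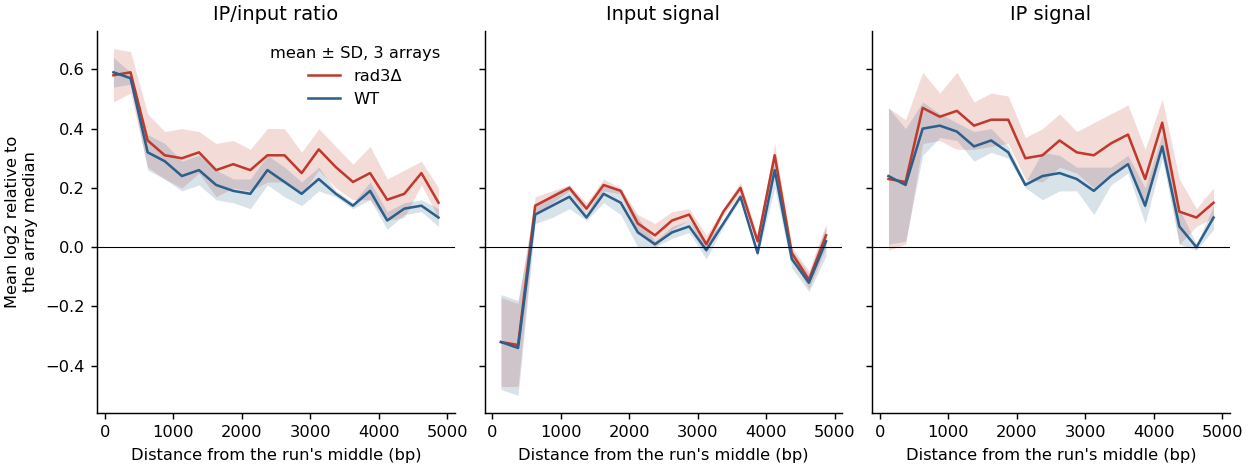
Mean log2 ratio, input and IP (vertical, relative to the array median) by distance from the middle of the 139 runs (horizontal, bp, both sides together), as mean and SD of 3 arrays for rad3Δ (red) and WT (blue). The ratio falls with distance but stays above 0 to 5000 bp, and input is below 0 only near the runs and in a few outer steps.

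The runs were named by the genes they overlap or, where they overlap none, by the genes on either side. The 15 with the highest mean over 6 arrays and the 8 with the most sites gave 22 named runs, 1 run being in both sets, 19 on chromosome II and 3 on chromosome I. Runs with 6 sites numbered 11, and the 4 of them with the highest means were taken. Of the 15 highest, 14 were on chromosome II. Array values of the 22 runs ran from 0.37 to 1.51, and in 20 of them the arrays of the strains overlapped. Of single arm positions, 11.4% had every rad3Δ array above every WT array and 5.78% the reverse. The runs without overlap are therefore not read as strain differences. The rad3Δ mean was the higher in 11 and the WT mean in 11. Input was below the median in both strains in 16 runs and IP above it in both strains in 15. Up to 2 outlier-flagged spots per run were left out of its mean. The levels depended on the background step: with normexp the 22 run means were 0.13 to 1.09 in rad3Δ and 0.59 to 1.25 in WT, and 17 of these 44 values moved by more than the SD between replicates.

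The highest of the runs, at chromosome II, 3514243 to 3515459, overlapped exg1, annotated as a cell wall glucan 1,6-beta-glucosidase. The gene spans 3514604 to 3516567, so the run began outside it and ended within it. The run's 5 sites averaged 0.71, 1.03 and 1.33 on rad3Δ replicates 1, 2 and 3, against 0.54, 1.51 and 1.23 on the WT replicates. Replicate 1 was the lowest in both strains, the ranges overlap, and the means were 1.02 ± 0.31 in rad3Δ and 1.09 ± 0.50 in WT (SD, n = 3). With normexp they were 0.56 in rad3Δ and 1.25 in WT. This run was bright in both channels, with a mean log2 input of 0.68 in rad3Δ and 0.64 in WT and an IP of 1.66 in rad3Δ and 1.72 in WT. The divergent gap between exg1 and its neighbour cbp1, whose product belongs to the CENP-B-like family of DNA-binding proteins, held another run (3513008 to 3513632). There the values were 0.89, 0.84 and 1.51 in rad3Δ, against 0.83, 0.95 and 0.62 in WT, with rad3Δ replicate 3 standing above the others. In this gap the input was low, at -0.61 in rad3Δ and -0.79 in WT. The gene cho2, for the methyltransferase that turns phosphatidylethanolamine towards phosphatidylcholine, held a run at each of 2 places. At 3945340 to 3945921 its 3 sites gave 0.93, 0.93 and 0.89 in rad3Δ, against 0.76, 0.78 and 0.38 in WT. The ranges did not overlap in this run, with rad3Δ higher by less than the bound of the rule. With normexp the means of this run were 0.71 in rad3Δ and 0.67 in WT. At 3948930 to 3949670, over cho2 and iml1, a subunit of the GATOR1 complex that restrains TORC1, the values were 0.75, 0.80 and 0.92 in rad3Δ, against 0.92, 1.12 and 0.86 in WT. Its input was far below the median, at -1.24 in rad3Δ and -1.36 in WT, and its IP was also below the median, at -0.45 in rad3Δ and -0.41 in WT. The ratio at this place was thus high with both channels below the median. All 3 sites were well above background on all arrays. With normexp the means were 0.85 in rad3Δ and 0.84 in WT.

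A pair of runs flanked thi2, the gene of the thiazole-forming enzyme of thiamine synthesis. Over the end of thi2 and into sec9, a SNARE of the plasma membrane, 4 sites at 3941523 to 3942114 gave 0.87, 0.80 and 0.53 in rad3Δ, against 1.23, 1.17 and 0.89 in WT. All WT arrays lay above all rad3Δ arrays, and the means were 0.73 ± 0.18 in rad3Δ and 1.1 ± 0.18 in WT (SD, n = 3). With normexp the rad3Δ mean was 0.13, below the threshold of the sites, and the WT mean 1.22. In the divergent gap between tda1 and thi2 (3938327 to 3939579) the values were 0.88, 0.87 and 1.0 in rad3Δ, against 0.99, 0.62 and 0.76 in WT. With normexp the means there were 0.60 in rad3Δ and 0.86 in WT. The gap holds the 5S rRNA gene SPRRNA.36 and the tRNA-Asp gene printed above.

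The run over tim18, for an anchor subunit shared by the TIM22 import complex and succinate dehydrogenase (chromosome II, 2035392 to 2036135), gave 0.61, 0.88 and 0.94 in rad3Δ, against 1.13, 0.69 and 0.91 in WT. The run of 8 sites over pgm1, for phosphoglucomutase, was 2100 bp wide (2803519 to 2805618) and gave 0.54, 0.84 and 0.67 in rad3Δ, against 0.68, 1.18 and 0.93 in WT. In the tandem gap between git11, for a G protein gamma subunit of glucose sensing, and gpd1, for the glycerol-3-phosphate dehydrogenase of osmotic stress, 5 sites at 4033096 to 4034871 gave 0.74, 0.87 and 1.37 in rad3Δ, against 0.69, 0.84 and 0.82 in WT. The arrays of the strains overlap at each of these places. With normexp the means were 0.64 in rad3Δ and 1.06 in WT at tim18, and 0.55 in rad3Δ and 1.07 in WT at pgm1. At the git11 and gpd1 gap they were 0.92 in rad3Δ and 0.76 in WT. At the git11 and gpd1 gap rad3Δ replicate 3 stood apart from the other 5 arrays. The run over SPBC365.16 and ccr1, for NADPH-cytochrome P450 reductase (2532107 to 2533563), had means of 0.73 ± 0.10 in rad3Δ and 0.91 ± 0.18 in WT (SD, n = 3). The run over qcr1, for a mitochondrial processing peptidase and respiratory complex subunit, held 11 sites over 2752 bp (2032050 to 2034801), every position in it. Its array values were 0.68, 0.68 and 0.81 in rad3Δ, against 0.65, 0.68 and 0.77 in WT. With normexp the means were 0.45 in rad3Δ and 0.81 in WT. Both channels were above the median there, with an input of 0.15 in rad3Δ and 0.12 in WT and an IP of 0.83 in rad3Δ and 0.80 in WT. The 5S rRNA gene SPRRNA.39 and the tRNA-Asn gene SPBTRNAASN.02 lie at its start.

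**Figure D4:**
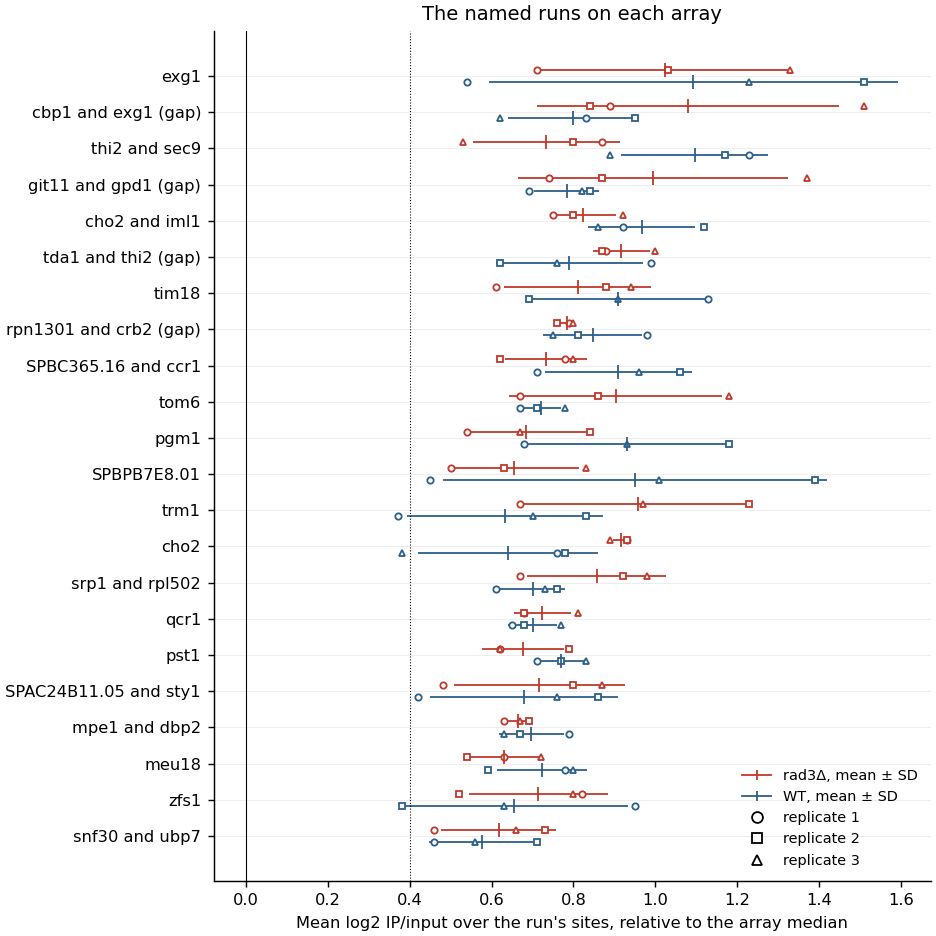
Mean log2 IP over input of each of the 22 named runs (horizontal, relative to the array median), with arrays as symbols and mean ± SD of 3 arrays, rad3Δ (red) above WT (blue), ordered by the mean over 6 arrays. All values lie between 0.37 and 1.51, and the arrays of the strains overlap in all runs but thi2 and sec9, where WT is higher, and the shorter cho2 run, where rad3Δ is higher.

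The widest run, 3054 bp on chromosome I (205522 to 208575), covered SPAC24B11.05 and sty1, the stress-activated MAP kinase, with 11 of 12 positions being sites. It gave 0.48, 0.80 and 0.87 in rad3Δ, against 0.42, 0.86 and 0.76 in WT. The run over snf30, of the SWI/SNF remodelling complex, and ubp7, a ubiquitin hydrolase (chromosome I, 879963 to 882853), held 10 sites and gave 0.46, 0.73 and 0.66 in rad3Δ, against 0.46, 0.71 and 0.56 in WT. With normexp the means of the snf30 and ubp7 run were 0.41 in rad3Δ and 0.59 in WT. In both of these runs replicate 1 was the lowest array of either strain. The run over pst1, a Sin3-family subunit of histone deacetylase complexes (chromosome II, 2454533 to 2456448), gave 0.62, 0.79 and 0.62 in rad3Δ, against 0.71, 0.77 and 0.83 in WT, in dim signal with an input of -1.0 in rad3Δ and -0.95 in WT. Runs of 6 sites each lay over zfs1, for an mRNA-binding zinc finger protein (chromosome II, 3484857 to 3486234), over mpe1 and dbp2, for a cleavage and polyadenylation factor and an RNA helicase (3662238 to 3663680), and over meu18 (1159212 to 1160910). The last of these ends at the tRNA-Arg gene printed above. The mpe1 and dbp2 run averaged 0.66 ± 0.03 in rad3Δ and 0.69 ± 0.08 in WT (SD, n = 3). With normexp its means were 0.46 in rad3Δ and 0.79 in WT. The tandem gap between rpn1301, for a proteasome subunit, and crb2, for the checkpoint mediator that acts downstream of Rad3, held 4 sites at 4209929 to 4210810 and gave 0.79, 0.76 and 0.80 in rad3Δ, against 0.98, 0.81 and 0.75 in WT. It holds the tRNA-Asn gene SPBTRNAASN.04 and the 5S rRNA gene SPRRNA.38. With normexp the means of the run in this gap were 0.66 in rad3Δ and 1.0 in WT. The other named runs, over trm1, tom6, SPBPB7E8.01 and srp1 with rpl502, had means of 0.65 to 0.96 in rad3Δ and 0.64 to 0.95 in WT. With normexp the rad3Δ means were 0.56 for tom6, 0.34 for SPBPB7E8.01 and 0.51 for srp1 with rpl502, and the WT means 0.71, 1.05 and 0.67. For trm1 they were 0.67 in rad3Δ and 0.79 in WT. WT was then the higher in each of these runs, where without normexp rad3Δ was the higher for trm1, tom6 and srp1 with rpl502.

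The sites lay outside genes more often than arm positions in general. Of the sites 69.1% had their middle in a protein-coding gene, against 79.9% of arm positions and 63.1% of positions raised in rad3Δ only. Gaps between tandem genes held 15.4% of sites, 14.5% of positions higher in WT and 9.13% of arm positions. Gaps between convergent genes held 2.86% of sites, 2.46% of positions higher in WT and 1.07% of arm positions. Gaps between divergent genes held 12.6% of sites, 9.92% of arm positions and 24.7% of the positions raised in rad3Δ only. A gene end lay within 500 bp of 43.3% of sites and 33.8% of arm positions, and of 28.8% of positions raised in rad3Δ only and 41.6% of those higher in WT. Sites near gene starts, at 39.1%, were about as common as arm positions there, at 38.2%. Among sites in runs, 65.3% lay in genes. These shares describe where the sites are, and members of a run share their place.

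AT-rich islands are the stretches that hold many fission yeast origins. An island was built from 500 bp windows with at least 75% A+T, and 244 lay on the arms. Within 1000 bp of an island lay 9.20% of sites, against 8.16% of arm positions. The share was 13.3% among sites in runs, 32.5% among positions raised in rad3Δ only and 2.87% among those higher in WT. With islands defined at 70% A+T the shares were 72.0% of sites and 65.4% of arm positions. The 500 bp around a site had a median G+C content of 34%, the same as around positions raised in rad3Δ only and below the 36.2% of arm positions. In 5 equal groups by G+C content, sites made up 11.4% of positions in the most AT-rich group and 3.32% in the most GC-rich. Positions raised in rad3Δ only made up 14.6% and 4.79% of these groups, and those higher in WT 2.11% and 1.96%.

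A small share of sites lay beside genes transcribed by RNA polymerase III. A tRNA gene lay within 500 bp of 70 sites, or 4.00%, against 1.11% of arm positions, 1.34% of positions raised in rad3Δ only and 3.89% of those higher in WT. A 5S rRNA gene lay within 500 bp of 35 sites, or 2.0%, against 0.376% of arm positions and 0.461% of positions raised in rad3Δ only. The 5S genes were looked at after they had been seen at several named runs. Counted by gene, 46 of 80 tRNA genes on the arms (57.5%) had a site within 500 bp, where 18.2% of windows of the same length around arm positions did. For 5S rRNA genes it was 18 of 24 (75%), where 19.2% of such windows had a site. The ratio within 500 bp of a tRNA gene, averaged per gene, had a median of 0.29 in rad3Δ and 0.29 in WT, and near a 5S gene 0.36 in rad3Δ and 0.31 in WT. When the members were chosen with normexp, tRNA genes lay near 2.42% of them and 5S genes near 1.03%, both still above the shares of arm positions. Sites in runs had a tRNA gene nearby in 5.49% and a 5S gene in 3.22%.

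Individual genes of this kind differed. The 5S gene SPRRNA.39 at qcr1 averaged 0.87 in rad3Δ and 0.97 in WT over its 3 positions, all of them sites. SPRRNA.35 averaged 0.82 in rad3Δ and 0.94 in WT, likewise with 3 of 3 positions. The tRNA-Asn gene SPBTRNAASN.02 averaged 0.74 in rad3Δ and 0.87 in WT, with 3 of 4 positions, and SPBTRNAASN.04 averaged 0.66 in rad3Δ and 0.70 in WT. SPRRNA.27, by contrast, had 2 sites among 5 positions and averaged 0.07 in rad3Δ and 0.05 in WT. A site beside such a gene therefore did not always mean that its whole surroundings were raised. The near-equal medians of the strains did not hold gene by gene either. SPRRNA.54, with no site, averaged 1.35 in rad3Δ and -0.09 in WT, and SPRRNA.40, with 1 site, 1.33 in rad3Δ and 0.70 in WT. In the other direction, SPATRNALYS.01, with no site, averaged -0.07 in rad3Δ and 0.44 in WT. SPATRNAMET.02, with 1 site, averaged 0.33 in rad3Δ and 0.77 in WT. A snoRNA gene lay near 1.49% of sites, 1.64% of positions higher in WT and 0.645% of arm positions. A long terminal repeat lay near 1.54% of sites and 1.28% of arm positions.

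**Figure D5:**
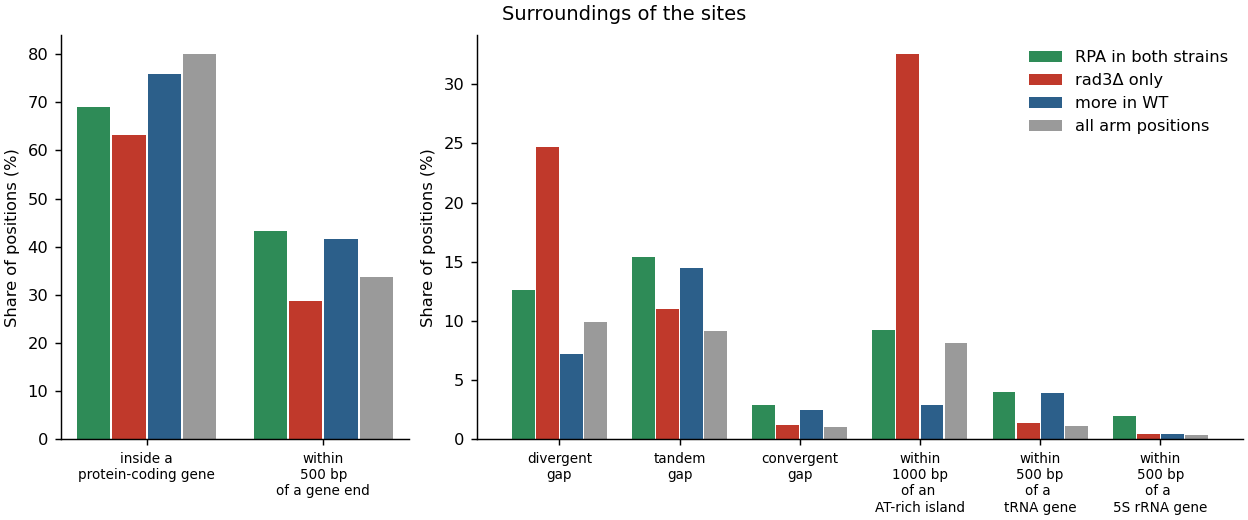
Share of positions (vertical, %) with each surrounding, for sites with RPA in both strains (green), positions raised in rad3Δ only (red), positions higher in WT (blue) and all arm positions (grey). Sites with RPA in both strains lie near tRNA genes in 4.00% and near 5S rRNA genes in 2.0%, against 1.11% and 0.376% of arm positions, while the bars for divergent gaps and AT-rich islands are highest for positions raised in rad3Δ only.

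Short motifs were searched on both strands in the 300 bp around each position. AAAAAAAA occurred at 22.6% of sites and 15.1% of arm positions, and TATAAA at 40.7% of sites and 34.6% of arm positions; both motifs hold only A and T. ACGCGT, the core of the MBF element, occurred at 1.77% of sites and 2.15% of arm positions. The HomolD element CAGTCACA occurred at 0.457% of sites and 0.574% of arm positions, and the forkhead element GTAAACAA at 5.94% of sites and 4.51% of arm positions. These are matches of letters and not binding sites.

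Lists of genes, chosen with earlier results of these data known, were read against all genes with at least 1 arm position, of which 771 of 3251 (23.7%) held a site. Replication origin and fork genes held a site in 11 of 28, or 39.3%, and 7.35% of their positions were sites, against 5.66% over all genes. The 7 genes with 2 sites each, more than any other of the list, were cdc18, the licensing factor, cdc20, for polymerase epsilon, cdc6, for polymerase delta, drc1, an initiation factor, mcl1, a fork protein, mcm5, of the replicative helicase, and pcn1, for the sliding clamp. The gene mean of cdc18 was 0.36 ± 0.14 in rad3Δ and 0.32 ± 0.10 in WT (SD, n = 3). Over cdc20, 2 sites among 23 positions left a gene mean of 0.02 ± 0.10 in rad3Δ and 0.06 ± 0.15 in WT. Cytosolic ribosomal protein genes held a site in 16 of 91 (17.6%), and 8.11% of their positions were sites, so that the share was below that of all genes by gene and above it by position. Among them rpl901 had sites at both of its positions and a gene mean of 0.83 ± 0.07 in rad3Δ and 0.51 ± 0.09 in WT. Among targets of MBF, the G1/S transcription factor, 2 of 11 held a site, cig2, for a B-type cyclin, and cdc18.

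Septum and cell wall genes held a site in 5 of 14, led by exg1 and psu1. By position the share was 6.11%, beside 5.66% over all genes. Over exg1, 3 of 7 positions were sites. Its gene mean was 0.97 ± 0.38 in rad3Δ and 1.38 ± 0.61 in WT (SD, n = 3), with overlapping arrays. Over psu1, 2 of 6 positions were sites and the gene mean was 0.38 ± 0.03 in rad3Δ and 0.52 ± 0.13 in WT (SD, n = 3). Among transporters 3 of 6 genes held a site: fur4, for uracil permease, ght2, for a hexose transporter, and str1, for a siderophore transporter. The gene fur4 had 4 sites among 7 positions, with gene values of 0.48, 0.34 and 0.53 in rad3Δ, against 0.62, 0.54 and 0.61 in WT. Its WT arrays all lay above its rad3Δ arrays, but only just, at 0.54 for the lowest WT and 0.53 for the highest rad3Δ array. Of single arm positions 5.78% had this order, so it is not read as a strain difference. Heat shock genes held a site in 2 of 10, glycolysis and translation factor genes in 3 of 10, thiamine and phosphate genes in 2 of 7 and checkpoint genes in 1 of 4, namely cdc25. No site lay in the 5 core histone genes measured, over 12 positions, or in the 2 genes of RPA and ribonucleotide reductase subunits measured, over 12 positions. With 5.66% of genic positions being sites, so few positions cannot tell absence from a low share.

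Sites made up 794 of 12586 positions (6.31%) on the searched left part of chromosome I and 956 of 14247 (6.71%) on chromosome II. On chromosome II the right arm held 690 of 9260 positions (7.45%) and 63 runs, and the left arm 266 of 4987 positions (5.33%) and 22 runs. Over stretches of 100 kb the share had a median of 6.24%. It was highest, at 15.6%, at 2200001 to 2300000 of chromosome I and lowest, at 0.283%, at 600001 to 700000 of the same chromosome.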

How the data were processed

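RPA (Ssb1) IP and input DNA were measured on 6 arrays, 3 of rad3Δ and 3 of WT, grouped by their titles. The deposited scanner files hold spot intensity values from Agilent Feature Extraction, version 10.7.1.1 for replicate 1 and 10.7.3.1 for replicates 2 and 3 per the file headers; background was subtracted, dyes were scaled linearly and no lowess was applied. In the authors' series matrix each value is the linear IP/input ratio, not centred. Its centred log2 values differed from those of the scanner files by at most 0.00161. The matrix chose the sites, and values in the text come from the scanner files without outlier-flagged spots. Each array was centred on its median with no loess or quantile step.

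A linear model (limma 3.58.1, R 4.3.3) was fitted to all 42641 positions, with a dye term and a mean per strain, 3 residual degrees of freedom and a prior of 9.02. Other steps used Python 3.11.15, pandas 2.3.3, numpy 2.4.6 and matplotlib 3.10.9. The sites, gene lists and rules were chosen with earlier results of these data known. Named runs are the 15 with the highest mean and the 8 with the most sites, ties going to the higher mean; of each gene list, up to 4 genes with the most sites may be named, and all 7 where they tie. Arrays with the same replicate number share a slide and scan session per the file headers, and their deviations from the strain means correlated at 0.362 to 0.483, against -0.286 to -0.106 for different numbers, so the numbers pair the arrays. Alternatives covered the ratio source, background correction, centring, dye term, dim spots, thresholds, the replicate block and leaving out arrays. The number of arrays limits the precision.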

Additional observations from a re-analysis of the deposited data

How the results depend on the processing

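With arrays left out, 1600 to 1884 sites were chosen, of which 1229 to 1524 were among the 1750, and 104 to 143 runs. A threshold of 0.3 gave 2863 sites and 263 runs, and 0.5 gave 970 sites and 63 runs; runs of at least 2 sites within 1000 bp numbered 365. Normexp background correction gave 66 runs, with 447 sites enriched in rad3Δ and 124 in WT, and over all positions 2254 in rad3Δ, 386 in WT and 0 that differed in either direction by limma, with 2131 higher and 1068 lower at an unadjusted p under 0.05. The cause was not tested. With the replicate block, which pairs arrays of a slide, 2424 positions were higher and 192 lower in rad3Δ, and the block moved no other count by over 1.5 times. Positions lower in rad3Δ numbered 9 with no dye term and 19 when centred on the mode. When arrays were left out in turn, sites enriched in rad3Δ ranged from 16 to 1613 and in WT from 28 to 1563. All enriched positions ranged from 333 to 8460 in rad3Δ and from 128 to 6880 in WT. The lowest counts came without replicate 3 of the strain, the array with the red IP. In those fits that strain's dye term came from the other strain alone. Positions that differed ranged from 0 to 2604 higher and from 0 to 336 lower, at 0 in each of the 3 fits that left out an array of replicate 3. By limma at an unadjusted p under 0.05 those fits gave 2648 to 2660 higher and 706 to 709 lower.

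Among sites in runs, 65.3% lay in genes, 13.3% near islands, 5.49% near tRNA genes and 3.22% near 5S genes. At a threshold of 0.5 these shares were 64.6%, 10.7%, 5.67% and 2.37%, the median G+C was 33.5%, the median ratio was 0.71 in rad3Δ and 0.69 in WT, and the left-out replicate gave 0.56 in rad3Δ and 0.52 in WT, beside 0.49 and 0.47 at 0.4. Islands of 70% A+T lay near 72.0% of sites. Members chosen with normexp, added after the data had been seen, gave 72.5% in genes, 2.42% near tRNA genes, 1.03% near 5S genes and a median G+C of 34.8%. Their median log2 input was -0.80 in rad3Δ and -0.78 in WT, their IP -0.34 in rad3Δ and -0.24 in WT and their ratio 0.52 in rad3Δ and 0.56 in WT. Choosing sites without replicate 1 gave 34.6% G+C and 1.38% near 5S genes. The other ranges without a replicate were 68.0% to 70.8% in genes, 9.06% to 9.24% near islands, 3.40% to 4.40% near tRNA genes and 1.38% to 2.13% near 5S genes. The G+C content ranged from 33.6% to 34.6%. Of 44 values of named runs under normexp 17 moved by more than the SD between replicates, and of 176 under the other alternatives 0 did. In none of these 220 did the level change its sign, which does not speak to the order of the strains.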
